A study of Mus musculus with 6 samples.

Results

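The genes described here encode the actin bundlers, motors and tip links of the microvillus, and they were compared between tuft-like and non-tuft-like medullary thymic epithelial cells (mTEC). The 10 members were named by their known roles in microvilli, with no threshold on their values, but with earlier results of these data known. They were Avil, Vil1, Espn, Pls1, Pls3, Eps8, Myo1a, Cdhr2, Cdhr5 and Ush1c. All 10 were matched by their Ensembl identifiers among the 52636 gene rows of the count table, and all 10 passed the filter on low counts, as did 32496 genes in total.

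Bulk RNAseq was made from 3 libraries of each population, sorted from thymi of C57BL/6 mice at 6 weeks of age, with no transgene, deletion or treatment. Both populations bound UEA1, were low for MHCII and negative for Sca1 and CD63, and CD80 is labelled negative, while the study describes such immature mTEC as low for it. The tuft-like cells carried CD117 and CD66a, and the non-tuft-like cells carried neither. The non-tuft-like cells are thus defined by the absence of both markers, and may be a mixture of mTEC types. Nothing in the labels says that the libraries came from separate mice, so the p-values measure only the spread between these libraries.

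A microvillus is a finger of membrane around a core of parallel actin filaments. Bundling proteins hold the filaments together, a myosin motor ties the core to the membrane, and protocadherins link the tips of neighbouring microvilli. Intestinal enterocytes carry such microvilli as a brush border, and inner ear hair cells build their stereocilia from related proteins. Tuft cells of hollow organs are named for a blunt tuft of microvilli with long actin roots, and advillin is a known marker of them.

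Promoter sequences are shown for the members with the largest differences and for Vil1, the close relative of Avil that did not follow it. RefSeq (GRCm38.p6, the assembly of mm10) gave windows for 9 of the 10 members. The lines hold the 250 bases before the annotated start, 5′ to 3′ on the strand of the gene. Capitals mark TTTGCAT or its reverse complement, the core that the octamer motif ATTTGCAT holds, which POU factors such as Pou2f3, the tuft cell regulator, are known to bind. Espn has 3 annotated starts, of which the first is shown, and counts per gene do not tell which start was used.
Avil, chr10:127000459-127000708, plus strand: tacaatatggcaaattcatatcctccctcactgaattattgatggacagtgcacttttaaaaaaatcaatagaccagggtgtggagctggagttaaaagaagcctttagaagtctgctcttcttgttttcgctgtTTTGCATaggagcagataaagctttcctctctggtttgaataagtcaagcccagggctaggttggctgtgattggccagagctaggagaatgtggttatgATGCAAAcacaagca
Vil1, chr1:74409134-74409383, plus strand: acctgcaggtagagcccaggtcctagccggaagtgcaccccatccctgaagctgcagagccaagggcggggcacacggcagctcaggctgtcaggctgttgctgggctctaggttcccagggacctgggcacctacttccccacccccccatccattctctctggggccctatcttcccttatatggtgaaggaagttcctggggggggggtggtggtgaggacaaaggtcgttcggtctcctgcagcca
Espn, chr4:152152390-152152639, minus strand: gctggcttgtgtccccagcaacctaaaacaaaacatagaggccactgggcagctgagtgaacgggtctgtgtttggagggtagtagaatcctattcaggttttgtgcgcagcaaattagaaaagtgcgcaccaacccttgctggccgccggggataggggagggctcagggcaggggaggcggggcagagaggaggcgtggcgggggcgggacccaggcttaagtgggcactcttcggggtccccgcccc
Cdhr2, chr13:54701213-54701462, plus strand: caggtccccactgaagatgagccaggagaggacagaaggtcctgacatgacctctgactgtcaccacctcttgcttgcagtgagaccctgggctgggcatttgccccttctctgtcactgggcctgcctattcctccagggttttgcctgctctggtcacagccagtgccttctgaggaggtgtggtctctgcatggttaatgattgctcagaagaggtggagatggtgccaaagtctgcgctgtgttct

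The Avil window held the core 2 times, at -115 to -109 on the plus strand and at -15 to -9 on the minus strand, counted from the annotated start. The core was searched for after the Avil window had been read, on both strands and within the 250 bases. It occurred in 4.12% of 32851 windows of this length and at least 2 times in 0.247% of them. None of the other windows of the members held it, and none held the full octamer, which 1.6% of all windows did. None of them held TATAAA, the TATA box, which 12.4% of all windows did. The Avil window was also low in GC, at 42%, against 62.8% for Vil1, 61.6% for the first Espn window, 56% for Cdhr2 and a median of 52.4% over all windows. A window of Pls3, which was not called, had 41.6%. These matches describe the letters and not binding of a factor.

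Library depth ran from 20097617 to 48369825 reads assigned to genes. Reads in no annotated feature made up 61.6% of all reads in tuft-like replicate 1 and 19.7% in tuft-like replicate 3, with the other 4 libraries between. Such reads can lie in introns as well as between genes. The sort was checked against marker lists. All 10 tuft cell markers were higher in the tuft-like libraries (summed level 5233 to 8608 against 292 to 361 TMM-normalised CPM, that is, counts relative to library size). Epithelial markers reached 5332 to 11807 CPM against 5736 to 6755 CPM, and of these 6 genes only Krt14 was called, lower. Krt5 was also lower in every tuft-like library (log2 fold change -3.02), without being called. Of this list 1 gene was higher and 2 were lower, both at an unadjusted p under 0.05 in edgeR and in DESeq2. Of 8 keratinocyte markers edgeR called 4 as lower in tuft-like libraries (147 to 1362 against 3256 to 5200 CPM). All 8 had a log2 fold change below 0 (median -3.09), and 7 were lower at an unadjusted p under 0.05 and in DESeq2. None of 13 leukocyte markers, 1 of which was not tested, was called (167 to 233 CPM in tuft-like and 179 to 335 CPM in non-tuft-like libraries), and none of 10 stromal and endothelial markers was (44.5 to 356 and 65.7 to 98.4 CPM). At an unadjusted p under 0.05 edgeR held 0 of the leukocyte and 1 of the stromal and endothelial markers, and DESeq2 called 0 of either. All 10 stromal and endothelial markers had a log2 fold change above 0 (median 1.16), and 2 did not overlap.

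Avil, Espn and Cdhr2 were called higher in tuft-like mTEC, and none of the 10 members was called lower (0 by edgeR at an unadjusted p under 0.05, and 0 by DESeq2). The other 7 did not pass a false discovery rate (FDR) of 0.05 in edgeR's quasi-likelihood test, and 4 of these had a lower and 3 a higher mean level in tuft-like mTEC. Over all tested genes 2.11% were called, 1.16% as higher and 0.951% as lower. Tuft-like and non-tuft-like values were fully separate for 3 members that were higher and 2 that were lower in tuft-like mTEC, where 7.18% and 8.85% of all tested genes did the same. The median log2 fold change, tuft-like over non-tuft-like, was 0.31 over the members and 0.02 over all tested genes. In such bulk libraries more cells that carry a transcript and more RNA per cell cannot be told apart. With 3 libraries against 3, no single value can reach an exact permutation p below 0.1.

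**Figure D1:**
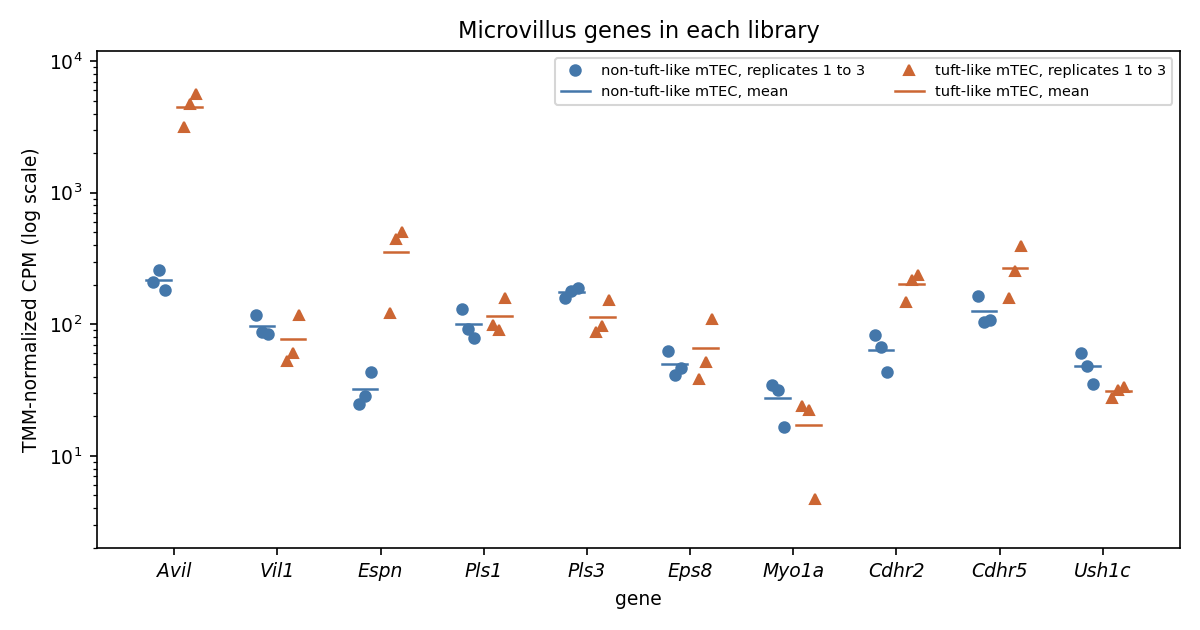
Level of each microvillus gene in each library, as TMM-normalised CPM on a log axis, with circles for the 3 non-tuft-like libraries, triangles for the 3 tuft-like libraries and lines for the group means. Avil, Espn and Cdhr2 separate upwards in tuft-like mTEC, while Vil1, Pls1, Eps8, Myo1a and Cdhr5 overlap and Pls3 and Ush1c lie slightly lower.

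Avil encodes advillin, an actin bundler of the gelsolin family that resembles villin. The gene (ENSMUSG00000025432) lies on chromosome 10 of mm10, from 127000709 to 127020994 on the plus strand. Its level in replicates 1, 2 and 3 was 211, 257 and 183 CPM for non-tuft-like cells, and 3143, 4732 and 5672 CPM for tuft-like cells. Every tuft-like library was far above every non-tuft-like library. The means were 4516 ± 1278 and 217 ± 37.0 CPM (SD, n = 3 each), a difference of 20.8-fold (log2 fold change 4.38, standard error 0.46, edgeR FDR 0.000886). Of 3398 exonic bp 165 overlap Tsfm on the other strand, and whether the counting used strand is not stated. In non-tuft-like mTEC Avil was still the highest of the 10 members per exonic length. Tuft cell markers were detected there too, such as Trpm5 at 105 against 2076 CPM, and the part of tuft-like cells carried over in the sort was not tested.

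Vil1 encodes villin, the gelsolin family bundler of the intestinal brush border. The gene (ENSMUSG00000026175, chromosome 1, 74409376 to 74435559) had 118, 87.4 and 84.0 CPM in the non-tuft-like libraries and 52.7, 60.2 and 117 CPM in the tuft-like libraries. Tuft-like replicate 3 lay with the non-tuft-like libraries and the other tuft-like libraries below them. No difference was found beyond the spread between libraries (log2 fold change -0.33, standard error 0.35, edgeR FDR 1.0).

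The balance of the 2 relatives was then taken within each library, as the log2 ratio of Avil to Vil1 counts per exonic kb, which does not depend on library scaling. It was 0.90, 1.62 and 1.19 in non-tuft-like and 5.96, 6.36 and 5.66 in tuft-like replicates 1, 2 and 3. The groups did not overlap, and the mean rose by 4.76, from 1.24 ± 0.36 to 5.99 ± 0.35 (SD, n = 3 libraries each). An exact permutation test gave p = 0.1 (two-sided), the lowest this design can give, and 0.15 after adjustment over the 3 pairs of related genes compared.

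Espn encodes espin, a small bundler of long actin filaments that hair cell stereocilia and brush borders share. The gene (ENSMUSG00000028943, chromosome 4, 152120331 to 152152371, minus strand) had 24.8, 28.3 and 43.2 CPM in the non-tuft-like libraries and 122, 448 and 500.4 CPM in the tuft-like libraries. All tuft-like libraries were higher, but replicate 1 stood far below the other 2. The means were 357 ± 205 and 32.1 ± 9.78 CPM (SD, n = 3 each), and the difference was 11.1-fold (log2 fold change 3.47, standard error 0.52, edgeR FDR 0.00617). Without tuft-like replicate 1, the library with the largest share of reads in no annotated feature, the log2 value was 3.89 (edgeR FDR 0.000323). Espn moved from the lowest of the 10 members per exonic kb in non-tuft-like mTEC (3.88 ± 1.18 CPM per kb) to the fourth in tuft-like mTEC (43.1 ± 24.8 CPM per kb).

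The plastins are bundlers with paired actin-binding domains. Pls1 encodes plastin 1 of intestinal microvilli and hair cells, and Pls3 the widely expressed plastin 3. Pls1 (ENSMUSG00000049493, chromosome 9) had 131, 92.9 and 78.2 CPM in non-tuft-like libraries, and in the tuft-like libraries 98.6, 90.9 and 159.5 CPM. These ranges overlapped (log2 fold change 0.21, standard error 0.32, edgeR FDR 1.0), and without tuft-like replicate 3 the sign turned (-0.125). Pls3 (ENSMUSG00000016382, chromosome X) had 159, 179.9 and 189.96 CPM in non-tuft-like libraries, and in the tuft-like libraries 87.5, 96.3 and 154 CPM. Every tuft-like library was below every non-tuft-like library, but replicate 3 only by a small margin, and the difference was not called (log2 fold change -0.65, standard error 0.30, edgeR FDR 0.581). The log2 ratio of Pls1 to Pls3 per exonic kb was -0.16, -0.83 and -1.16 in non-tuft-like and 0.30, 0.04 and 0.17 in tuft-like replicates 1, 2 and 3. The ratio was therefore higher in all 3 tuft-like libraries, by 0.89 on average (exact permutation p 0.1, adjusted 0.15, two-sided).

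Eps8 encodes a protein at the microvillus tip that caps and bundles filaments and sets their length. The gene (ENSMUSG00000015766, chromosome 6) had 62.5, 41.4 and 46.3 CPM in non-tuft-like libraries, and in the tuft-like libraries 38.2, 51.3 and 109.6 CPM. The groups overlapped (log2 fold change 0.41, standard error 0.40, edgeR FDR 1.0), and leaving out tuft-like replicate 3 gave -0.20. Myo1a encodes the brush border motor that joins the actin core to the membrane. It (ENSMUSG00000025401, chromosome 10) had 34.8, 31.8 and 16.4 CPM in non-tuft-like libraries, and in the tuft-like libraries 24.0, 22.4 and 4.72 CPM. The third replicate was the lowest in both groups, the groups overlapped, and no difference was called (log2 fold change -0.70, standard error 0.60, edgeR FDR 1.0).

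Cdhr2 and Cdhr5 encode the protocadherins that pair to form the tip link of brush border microvilli. Cdhr2 (ENSMUSG00000034918, chromosome 13, 54701461 to 54736662) had 82.8, 66.7 and 43.1 CPM in non-tuft-like libraries, and in the tuft-like libraries 147, 218 and 238 CPM. All tuft-like libraries were higher, with means of 201 ± 47.5 and 64.2 ± 20 CPM (SD, n = 3 each), a difference of 3.13-fold (log2 fold change 1.65, standard error 0.33, edgeR FDR 0.0301). This call was the least steady of the 3. It was lost without non-tuft-like replicate 2 (edgeR FDR 0.156), non-tuft-like replicate 3 (0.0976), tuft-like replicate 2 (0.125) or tuft-like replicate 3 (0.0665), while the log2 fold change stayed between 1.40 and 1.85.

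Cdhr5 (ENSMUSG00000025497, chromosome 7) had 165, 104 and 108 CPM in non-tuft-like libraries, and in the tuft-like libraries 158, 256 and 395 CPM. Tuft-like replicate 1 lay just below non-tuft-like replicate 1, so the groups overlapped, and the difference was not called by edgeR (log2 fold change 1.11, standard error 0.37, edgeR FDR 0.26). DESeq2 called it with an adjusted p of 0.0187. The log2 ratio of Cdhr5 to Cdhr2 per exonic kb was 1.59, 1.23 and 1.91 in non-tuft-like and 0.69, 0.82 and 1.32 in tuft-like replicates 1, 2 and 3. The 2 ranges overlapped, and the mean difference of -0.63 had an exact permutation p of 0.2 (two-sided, adjusted 0.2).

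Ush1c encodes harmonin, the scaffold that binds the tails of these protocadherins. The gene (ENSMUSG00000030838, chromosome 7) had 60.5, 48.0 and 35.4 CPM in non-tuft-like libraries, and in the tuft-like libraries 27.5, 31.9 and 33.6 CPM. The tuft-like libraries lay close together and just below the lowest non-tuft-like library, and the difference was not called (log2 fold change -0.63, standard error 0.32, edgeR FDR 0.706). Of its 3849 exonic bp 120 overlap Gm9860 on the other strand, and 49 of 3551 exonic bp of Vil1 overlap Usp37 likewise.

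**Figure D2:**
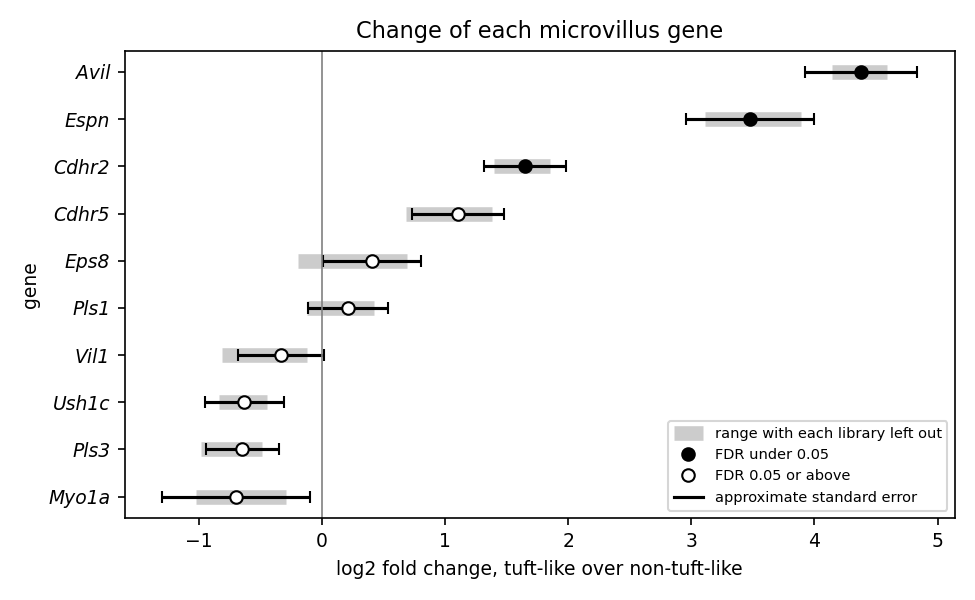
Log2 fold change of each gene, tuft-like over non-tuft-like, with its approximate standard error as a line, and grey bars for the range when each library is left out in turn. Filled points passed an FDR of 0.05, which Avil (4.38), Espn (3.47) and Cdhr2 (1.65) did, and the grey bars of Pls1 and Eps8 cross 0.

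Levels of different genes were compared per exonic kb. In tuft-like mTEC Avil stood at 1329 ± 376 CPM per kb, followed by Cdhr5 at 98.4 ± 43.5, Cdhr2 at 48.7 ± 11.5, Espn at 43.1 ± 24.8, Pls1 at 29.9 ± 9.66, Pls3 at 26.6 ± 8.55 and Vil1 at 21.6 ± 9.94 CPM per kb (SD, n = 3). Ush1c (8.05 ± 0.81), Eps8 (5.37 ± 3.07) and Myo1a (4.59 ± 2.88 CPM per kb) were the lowest. Avil stood apart. Below Cdhr5, every gene differed from its neighbour in this order by less than the larger SD of the pair, except Vil1 from Ush1c. In non-tuft-like mTEC the order was Avil (63.9 ± 10.9), Cdhr5 (45.8 ± 12.5), Pls3 (41.6 ± 3.69), Vil1 (27.2 ± 5.34), Pls1 (25.8 ± 6.94), Cdhr2 (15.5 ± 4.84), Ush1c (12.5 ± 3.26), Myo1a (7.45 ± 2.65), Eps8 (4.05 ± 0.89) and Espn (3.88 ± 1.18 CPM per kb). Here Cdhr5 and Pls3, Vil1 and Pls1, Cdhr2 and Ush1c, and Eps8 and Espn differed by less than the larger SD of the pair. Counted over the longest annotated transcript in place of all exons, Espn (77.2 CPM per kb) would stand above Cdhr2, Pls3 (34.8) above Pls1 (31.4) and Eps8 (14.5) above Ush1c (10.1) in tuft-like mTEC. In non-tuft-like mTEC Pls3 (54.4) would stand above Cdhr5 (47.7), Ush1c (15.6) just above Cdhr2 (15.5) and Eps8 (11.0) above Myo1a (8.04 CPM per kb).

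Avil held the main share of the 10 members in tuft-like mTEC. Of their summed level per kb, which leaves out all other actin genes, it made up 83.3%, 83.2% and 81.0% in tuft-like replicates 1, 2 and 3, against 22.2%, 30.4% and 25.1% in the non-tuft-like libraries. The share hardly differed among the tuft-like libraries, although the summed level ranged from 1111 to 2061 CPM per kb. Without Avil the sum over the other 9 members was 186, 282 and 391 CPM per kb in the tuft-like and 218, 173 and 161 CPM per kb in the non-tuft-like libraries. These ranges overlapped, with tuft-like replicate 1 inside the non-tuft-like range. Avil reached the 99.9th percentile of levels among tested genes in tuft-like mTEC and the 97.8th in non-tuft-like mTEC, and Espn moved from the 68.2nd to the 96.4th.

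**Figure D3:**
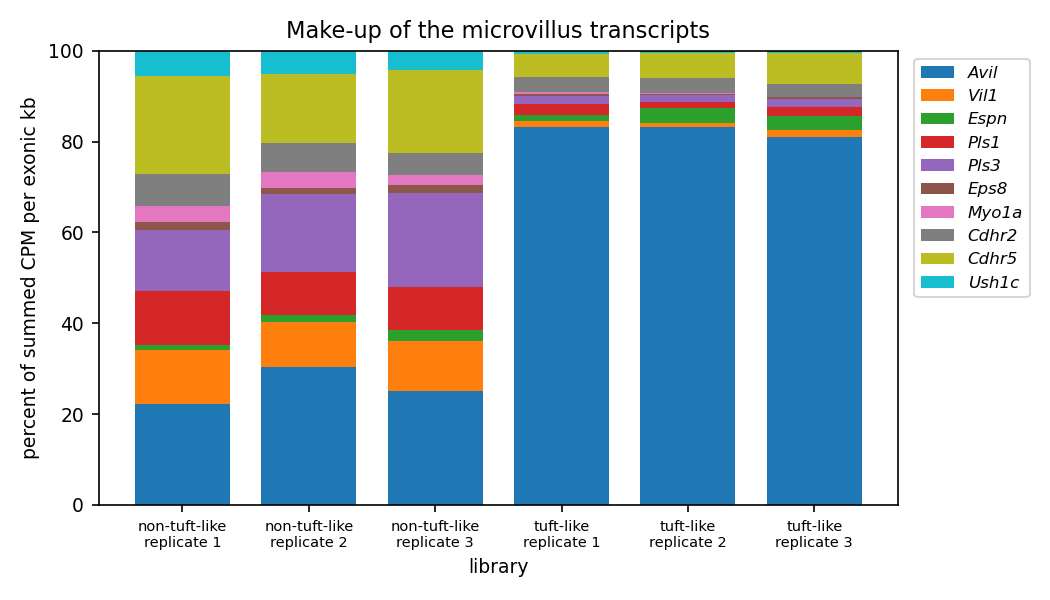
Make-up of the summed level of the 10 genes in each library, in percent of the sum of CPM per exonic kb. Avil takes 81.0% to 83.3% of the bar in the 3 tuft-like libraries and 22.2% to 30.4% in the 3 non-tuft-like libraries.

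**Figure D4:**
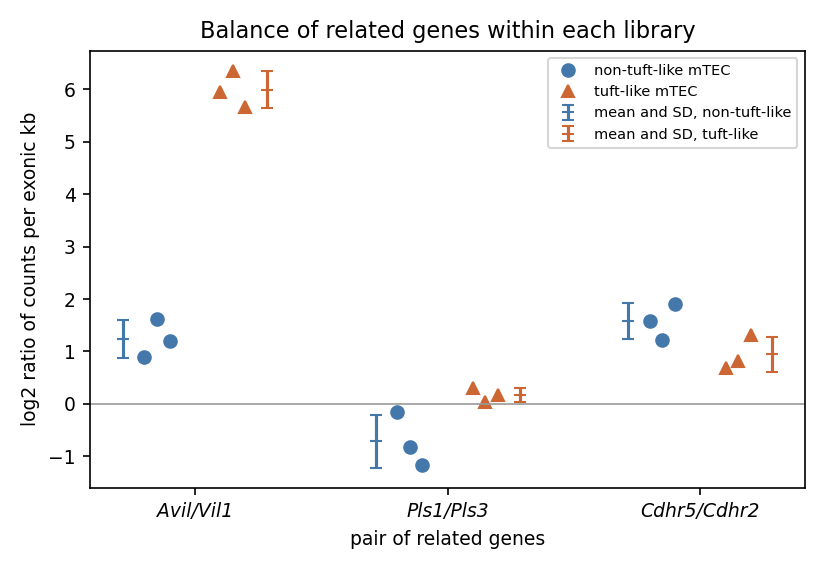
Log2 ratio of counts per exonic kb between 2 related genes within a library, with points for the libraries and the mean with SD beside them. The ratio of Avil to Vil1 lies between 5.66 and 6.36 in tuft-like and between 0.90 and 1.62 in non-tuft-like mTEC, the ratio of Pls1 to Pls3 also separates, and that of Cdhr5 to Cdhr2 overlaps.

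The tuft-like libraries differed among themselves. Of the 10 members 9 had their highest tuft-like level in replicate 3, all but Myo1a, and the same held for 30.4% of all tested genes with a count in a tuft-like library and for 61.6% of the 11593 that averaged 10 CPM or more. Between tuft-like replicates 1 and 3 the level rose 4.10-fold for Espn, 2.87-fold for Eps8, 2.50-fold for Cdhr5, 2.22-fold for Vil1 and 1.80-fold for Avil, and for Myo1a replicate 3 held 0.197 of the level in replicate 1. The share of reads in no annotated feature, 61.6% in replicate 1 and 19.7% in replicate 3, moved with these levels, and its part in them was not tested. As a low reference, counts per exonic kb were set beside the 99th percentile of 1134 olfactory receptor genes in the same library. All 10 members lay above it in all 6 libraries, Avil at least 19.9-fold. The values under 2-fold were those of Espn in the 3 non-tuft-like libraries (1.73 to 1.97-fold), of Eps8 in tuft-like replicate 1 (1.13-fold) and non-tuft-like replicates 2 and 3 (1.94 and 1.38-fold), and of Myo1a in tuft-like replicate 3 (1.02-fold) and non-tuft-like replicate 3 (1.63-fold).

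Lists of related genes were examined beside the members. Of 53 tested genes in 6 lists, edgeR's quasi-likelihood test called 0 as higher and 2 as lower in tuft-like mTEC, or 3.77%, and the median was 0.002 in log2 fold change. Over all 32496 tested genes edgeR called 1.16% as higher and 0.951% as lower, together 2.11%. At an unadjusted p under 0.05, 3 genes of the lists were higher and 8 lower, and the share of all tested genes at that p was not counted. DESeq2 called 3 genes of the lists as higher and 6 as lower, and of all 32496 tested genes 974 as higher and 930 as lower.

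The genes called lower were Eps8l1 and Cdhr1. Eps8l1, an Eps8 relative, had 76.6, 116 and 104 CPM in non-tuft-like libraries, and in the tuft-like libraries 28.3, 20.9 and 10.2 CPM (log2 fold change -2.32, standard error 0.40, edgeR FDR 0.0133). Without tuft-like replicate 2 its edgeR FDR was 0.0502, while Cdhr1 was called in every alternative fit. Cdhr1, a protocadherin known from photoreceptors, had 125, 153 and 90.1 CPM in non-tuft-like libraries, and in the tuft-like libraries 12.6, 16.9 and 7.46 CPM (log2 fold change -3.32, standard error 0.39, edgeR FDR 0.00155). Both were thus lower in every tuft-like library, in contrast to Eps8, which overlapped, and Cdhr2, which was higher. Baiap2l1, a membrane-bending partner of Eps8 at the tip, was higher in all 3 tuft-like libraries without passing the test (log2 fold change 1.28, edgeR FDR 0.0956), and Capzb, which caps filament ends, had 0.25 (edgeR FDR 1.0). Baiap2 (-1.58, edgeR FDR 0.068) and the filament nucleator gene Cobl (-1.77, edgeR FDR 0.0806) were lower in all 3 tuft-like libraries, also without passing. The list of Eps8 relatives and growth regulators had a median of -0.005 over 10 genes, with 1 higher and 3 lower both at an unadjusted p under 0.05 and in DESeq2.

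No gene was called among the 6 gelsolin family relatives of Avil and Vil1 (median log2 fold change 0.42). Gsn, the filament-severing founder of the family, had -1.18 (edgeR FDR 0.264) and did not overlap between populations, the mean being 539 ± 278 CPM for tuft-like cells against 1218 ± 79.7 CPM (SD, n = 3 each). Capg had 0.85 (edgeR FDR 0.276). Of the 7 tested other bundlers (median -0.28) none was called, including Lcp1, the leukocyte plastin, at 0.82 (edgeR FDR 0.485) and Actn4, a crosslinker of most cells, at -0.14 (edgeR FDR 1.0). At an unadjusted p under 0.05 edgeR held 2 of the gelsolin relatives (Gsn and Capg) and 1 other bundler (Lcp1), and DESeq2 called 2 and 1. The ERM linkers, which tie filaments to membranes, had a median of -0.32 over 6 genes and none called, with Ezr at -0.87 (edgeR FDR 0.205) and its partner Slc9a3r1 at 0.03 (edgeR FDR 1.0). Ezr alone had an unadjusted p under 0.05, and DESeq2 called 1 ERM gene. Calml4, a light chain of the tip-link motor complex, had 0.40 (edgeR FDR 1.0) in a list of 6 tip-link partners and paralogs with a median of -1.04. The partners Myo7b and Anks4b had 0.28 and -0.225. The paralogs Cdhr1, Cdhr3 and Cdhr4 had -3.32, -1.98 and -1.85, of which only Cdhr1 was called.

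Stereocilium genes of hair cells gave no call among 18 (median 0.06), including Myo3b at 0.52 (edgeR FDR 0.948) and Cib2 at 0.51 (edgeR FDR 1.0), whose exons share 227 bp with the tuft gene Sh2d7 on the other strand. There 2 genes had an unadjusted p under 0.05 in edgeR, both lower, and DESeq2 called 0. Of the 14 enterocyte markers 2 were called, both lower in tuft-like mTEC, Slc5a1, the glucose transporter of the brush border (log2 fold change -2.78, edgeR FDR 0.00503), and Apoa4 (-2.49, edgeR FDR 0.0113). In this list 13 genes had a log2 fold change below 0 and 1 above (median -1.28). At an unadjusted p under 0.05 edgeR held 4 and DESeq2 called 3, all lower. The summed level of that list was 120.1 to 359 CPM in tuft-like and 386 to 564 CPM in non-tuft-like libraries, and 3 of its genes, Alpi, Fabp2 and Treh, had no count in tuft-like replicate 3. Hair cell markers gave no call in edgeR among 6 tested genes (1 at an unadjusted p under 0.05, 0 in DESeq2), with 262 to 389 CPM in tuft-like and 189.8 to 256 CPM in non-tuft-like libraries, most of it Myo6, and Pou4f3 had no count in 3 libraries. The part of either cell type in the levels of the 10 members was not tested.

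**Figure D5:**
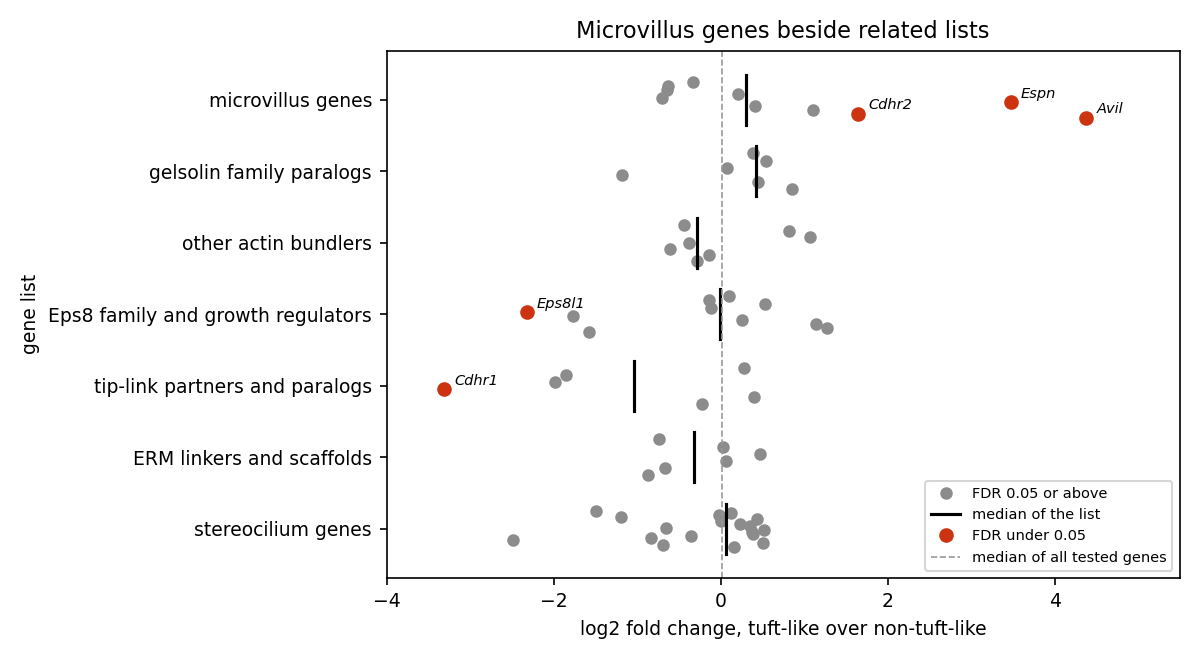
Log2 fold change of each tested gene, tuft-like over non-tuft-like, by list, with red points for an FDR under 0.05, black lines for list medians and a dashed line for the median of all tested genes. Besides Avil, Espn and Cdhr2, the called genes are Eps8l1 (-2.32) and Cdhr1 (-3.32).

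The genes whose pattern over the 6 libraries was most like that of a called member were found by the root mean square difference in log2 CPM, each gene centred on its own mean, among 4922 other tested genes that averaged 50 CPM or more. The 5 nearest to Avil were Il17rb (0.17), Trpm5 (0.17), Vav1 (0.19), Gnat3 (0.19) and Pik3r5 (0.21 log2 units). They include known tuft cell genes, such as the taste channel gene Trpm5 and the gustducin gene Gnat3. The nearest to Espn was Limd2 (0.34), then Gm7534 (0.36), Fam171a1 (0.42), Fam20a (0.45) and Cadps2 (0.46). By this measure no compared gene was as near to Espn as the 5 above were to Avil. The nearest to Cdhr2 were Atp2a3 and Slc44a4 (0.08 each), Ctsc (0.10), Clmn (0.13) and Aldh3a2 (0.13). The measure includes the difference between the groups, so a small value can reflect a like fold change alone. Log2 fold changes of the 5 nearest were 4.02 to 4.31 for Avil, 2.87 to 3.535 for Espn and 1.42 to 1.77 for Cdhr2.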

How the data were processed

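RNA from 3 tuft-like and 3 non-tuft-like mTEC libraries was made into cDNA with the SMARTer Ultra Low Input kit. The authors used Trimmomatic 0.36 for trimming and STAR 2.7.3a for alignment to mm10, counted per gene with HTSeq 0.12.4 (intersection-nonempty), and deposited the resulting read counts per gene without normalisation. Strand setting and annotation release are not given in the sources used here. Identifiers were matched to GENCODE M21, which names 99.72% of the gene rows and gives exonic lengths and overlaps.

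Groups came from the sample labels. Genes were filtered with filterByExpr (minimum count 10, minimum total 15), normalised by TMM and tested with edgeR 4.0.16 (quasi-likelihood F-test, R 4.3.3, Benjamini-Hochberg over all tested genes, FDR threshold 0.05), without covariates. The standard error given is approximate, the size of a log2 fold change divided by the root of its F. Ratios used a pseudocount of 0.5 counts. The scripts were tested on simulated data. A count of 0 allows up to 3 counts, between 0.0639 and 0.124 CPM at these depths, and covers counting error only.

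The members and lists were chosen with earlier results of these data known. A list of further motor genes is not reported here. Named genes were the members, called genes of the lists, the 2 highest per exonic kb in each list and the 5 genes most like each called member, and any other gene named was picked with its values in view. Alternatives were other size factors, DESeq2 1.42.0, limma 3.58.1 voom, a block on replicate number, different filters on low counts, omission of single libraries, subtraction of background counts, another gene length and another pseudocount. No pair of libraries was a duplicate (at most 1.36% of genes had equal counts).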

Additional observations from a re-analysis of the deposited data

How the results depend on the processing

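Avil and Espn were called in all 14 alternative fits, with log2 fold changes of 4.14 to 4.59 and 3.11 to 3.89, and Cdhr2 in 9 of them (1.40 to 1.85). The number of the 10 members called was 3, was 4 with DESeq2, which added Cdhr5, and ranged from 2 to 3 with each library left out. Libraries with the same replicate number showed no positive correlation of their deviations from the group means (-0.156, -0.061 and -0.326). The labels do not say whether such libraries share mice, and with 3 libraries per group these correlations cannot decide it. With the replicate block 2 members were called, Cdhr2 having an edgeR FDR of 0.0536, and 737 of all tested genes. Without tuft-like replicate 3 the log2 fold changes of Pls1 (-0.125) and Eps8 (-0.20) turned negative, both genes having their highest level in that library, and with each library left out they ranged from -0.125 to 0.422 and from -0.20 to 0.689.

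The count of all called genes, 687, was 1045 with library size only, 1904 with DESeq2, 1127 with all genes that had any count, 1060 after background subtraction and 376 to 922 with each library left out. Of the related lists, those with another count were as follows. With library size only 1 gelsolin relative, 3 Eps8 relatives and regulators and 1 ERM linker were called, and after background subtraction 1, 3 and 1. With DESeq2 they were 2, 4 and 1, with 1 other bundler. With voom 1 gelsolin relative and 4 Eps8 relatives were called, with all counted genes 4 Eps8 relatives, and with at least 1 CPM in 3 libraries 2 Eps8 relatives and 1 ERM linker. With each library left out the ranges were 0 to 1 for gelsolin relatives and 0 to 2 for Eps8 relatives. The cause of these changes was not tested. Over the longest transcript, levels per kb moved to 77.2 and 6.95 for Espn and 14.5 and 11.0 for Eps8 in tuft-like and non-tuft-like mTEC, to 54.4 for Pls3 in non-tuft-like and to 10.1 for Ush1c in tuft-like mTEC, by the lengths alone. The pseudocount changed no ratio by more than 0.01 in log2. The lowest count of any member was 171, for Myo1a in tuft-like replicate 3. That value lay at 1.02-fold of the olfactory receptor 99th percentile, and the part of depth in the results was not tested.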

Other observations

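Cdx1, a transcription factor of intestinal epithelium, had 46.6, 73.7 and 89.4 CPM in non-tuft-like and 16.5, 158 and 219 CPM in tuft-like replicates 1, 2 and 3, and was not called (log2 fold change 0.91, edgeR FDR 1.0). Tuft-like replicate 1 was the lowest of all 6 libraries for Cdx1, as it was the lowest of the tuft-like libraries for Espn. In the same library Pecam1, an endothelial gene, had 106 CPM, against 8.16 and 3.07 CPM in the other tuft-like libraries, and Col3a1, a fibroblast collagen gene, 64.1 CPM against 7.78 CPM in replicate 2 and no count in replicate 3. Krt18, a keratin of simple epithelia, was higher in every tuft-like library without passing the test (1780, 2705 and 4054 CPM against 1437, 1500 and 1206 CPM, log2 fold change 1.04, edgeR FDR 0.417). Krt14, a keratin of basal epithelia, fell by 3.49 on the log2 scale (edgeR FDR 0.000885). These genes were picked with their values in view.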
